A study of Drosophila melanogaster with 9 samples.

Results

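In stage 5 embryos of Drosophila melanogaster, 73 of 15682 genes met a rule for a clearly higher level in ataxin-7 replicates 2 and 3 than in any non-stop or OregonR library. The rule asked for a mean of at least 5 RPKM (reads scaled to the length of the gene and to the size of the library) in ataxin-7 replicates 2 and 3, and for a mean at least 1.5 times the highest of the 6 non-stop and OregonR values. Of the 4834 genes that reached a mean of 5 RPKM in those replicates, 1.51% met the rule. The RPKM values of 8 libraries therefore chose the genes, and ataxin-7 replicate 1 was the only library that took no part. The difference between ataxin-7 and the other genotypes is given here as a description with no test.

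Stranded libraries of polyadenylated RNA had been sequenced for 3 genotypes with 3 biological replicates per genotype. These were ataxin-7, non-stop and OregonR, the reference strain, which the labels write as oreR. All embryos had been collected for 2 h, aged for 1 h at 25 °C and sorted by hand to stage 5. The ataxin-7 and OregonR libraries belonged to experiment 1013 and the non-stop libraries to experiment 1190, so that genotype and experiment cannot be told apart wherever non-stop is compared. For ataxin-7 replicates 2 and 3 the genotype tag differs from the title, and samples were grouped by title. The labels name no allele and do not say whether mothers, embryos or both carried a mutation.

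Ataxin-7 and Non-stop are subunits of the deubiquitinase module of SAGA, a co-activator that modifies histones and meets RNA polymerase II at promoters. The protease that removes ubiquitin is Non-stop, whereas Ataxin-7 holds the module on the complex. At stage 5 the fly embryo builds its first cell layer while RNA loaded by the mother is cleared and the genome of the embryo takes over transcription.

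The recovered reads showed the depth of each library. The ataxin-7 libraries held 74.8 to 82.0 M (megareads) in genes, the non-stop libraries 36.9 to 39.3 M and the OregonR libraries 76.4 to 90.0 M. The worth of 3 reads on a 1 kb gene was 0.0341 to 0.0767 RPKM, which covers counting error only. The targeted gene not was at 45.0, 46.9 and 54.05 RPKM in ataxin-7, 0.608, 0.662 and 1.11 RPKM in non-stop and 52.3, 53.5 and 56.7 RPKM in OregonR. Atxn7 was at 21.9, 25.5 and 28.0 RPKM in the libraries labelled ataxin-7, 19.0, 18.1 and 19.0 RPKM in non-stop and 17.98, 19.1 and 19.8 RPKM in OregonR. The level of not was therefore low only in the non-stop libraries, whereas Atxn7 was at its highest in the libraries labelled ataxin-7. The RNA level of Atxn7 thus does not check that label.

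The libraries labelled ataxin-7 also differed in stage markers. Over 25 early zygotic genes the mean of log2(RPKM + 1) was 3.71, 5.22 and 5.76 in ataxin-7 replicates 1, 2 and 3, 2.97 to 3.35 in non-stop and 6.59 to 6.78 in OregonR. Over 14 maternal genes this mean was 6.15, 4.51 and 4.44 in the ataxin-7 replicates, 5.58 to 5.72 in non-stop and 3.28 to 4.06 in OregonR. By both lists ataxin-7 replicate 1 lay near the non-stop libraries and ataxin-7 replicates 2 and 3 lay between non-stop and OregonR. Ovary and eggshell markers summed to 0.727 to 1.18 RPKM in ataxin-7, 0.894 to 1.097 RPKM in non-stop and 0.877 to 1.08 RPKM in OregonR, and none of the 15 reached 1 RPKM in any library.

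Replicate 1 took no part in the choice of the genes and differed from replicates 2 and 3 in the stage markers, so its values are given first. Over all 73 the mean of log2(RPKM + 1) was 4.36, 4.31 and 4.33 in ataxin-7 replicates 1, 2 and 3, against 2.69, 2.78 and 2.73 in non-stop and 2.43, 2.45 and 2.60 in OregonR. The mean level, over genes that were lower, level or higher in replicate 1, was thus even across the ataxin-7 libraries, while the maternal and early zygotic lists each differed by more than 1 log2 unit between replicate 1 and the other replicates. An even level was common, since over all 4834 genes of the same level the median ratio of replicate 1 to the mean of replicates 2 and 3 was 1.02. The 2 lists hold genes picked as markers of stage. Whether the stage of the embryos had a part in the level of the 73 genes was not tested.

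**Figure D1:**
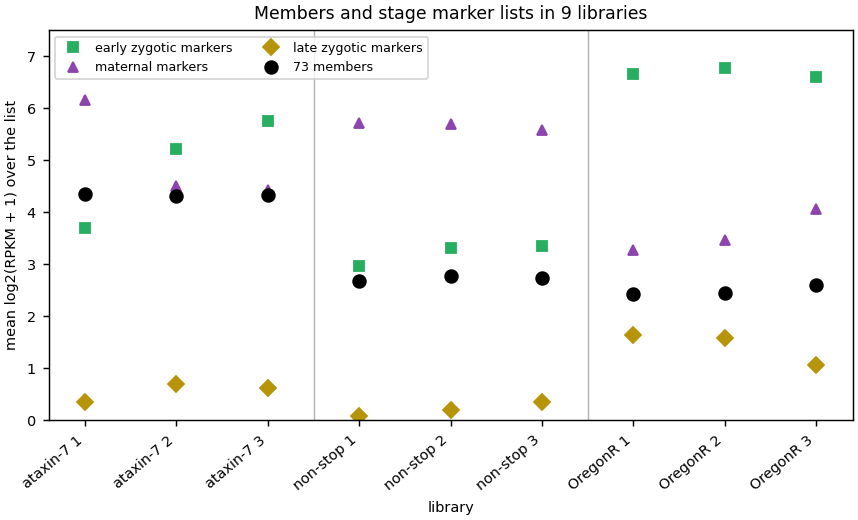
Mean log2(RPKM + 1) of the 73 genes (black circles) and of the early zygotic, maternal and late zygotic marker lists (coloured symbols) in each of the 9 libraries, grouped as ataxin-7, non-stop and OregonR. The 73 genes stand at 4.31 to 4.36 in all 3 ataxin-7 libraries, while the maternal list stands at 6.15 in ataxin-7 replicate 1 and at 4.51 and 4.44 in replicates 2 and 3.

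Gene by gene, ataxin-7 replicate 1 was above all 6 non-stop and OregonR libraries for 68 of the 73 genes. Among the 4834 genes of the same level, most of them outside the rule, this held for 25.6%. For any chosen gene whose replicate 1 was not lower than that of replicates 2 and 3 by 1.5-fold or more, the rule itself put replicate 1 above the other 6. Only genes lower by that much could fall outside, and 5 of the 73 did, so the count of 68 follows largely from the rule. For 56 of the 73 genes (76.7%) replicate 1 lay within 1.5-fold of the mean of replicates 2 and 3, against 74.7% of the genes of the same level. Of the others, 8 (10.96%) were lower in replicate 1 and 9 (12.3%) were higher, against 4.76% and 20.5% of the genes of the same level. The median ratio of replicate 1 to the mean of replicates 2 and 3 was 1.08, with quartiles of 0.890 and 1.28. A level that peaks in replicates 2 and 3 was thus seen in 8 of the 73 genes by this 1.5-fold measure, while 68 were above the other genotypes in all 3 ataxin-7 libraries. The share of 8 genes was larger than at the same level. The rule can favour this, since it asked for a high mean of replicates 2 and 3, which is also the base of the ratio.

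The rule itself draws genes whose values are high in ataxin-7, so a set chosen by only part of the rule gives a further reading. Such sets lack the bound of the rule against a genotype, so their shares above all 6 libraries cannot be set directly against that of the 73 genes. There were 539 other genes of the same level whose mean in replicates 2 and 3 was at least 1.5 times every non-stop value but not every OregonR value. Replicate 1 was above all 6 libraries for 14.7% of these and was lower than replicates 2 and 3 by 1.5-fold or more for 37.3%. Among 374 other genes that were at least 1.5 times every OregonR value but not every non-stop value, replicate 1 was above all 6 libraries for 46.5% and higher than replicates 2 and 3 by 1.5-fold or more for 32.1%. Where replicate 1 departed from replicates 2 and 3 it was thus mostly lower in the set of 539 genes and higher in the set of 374 genes, while 8 of the 73 genes were lower and 9 higher. No test was made of these shares.

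**Figure D2:**
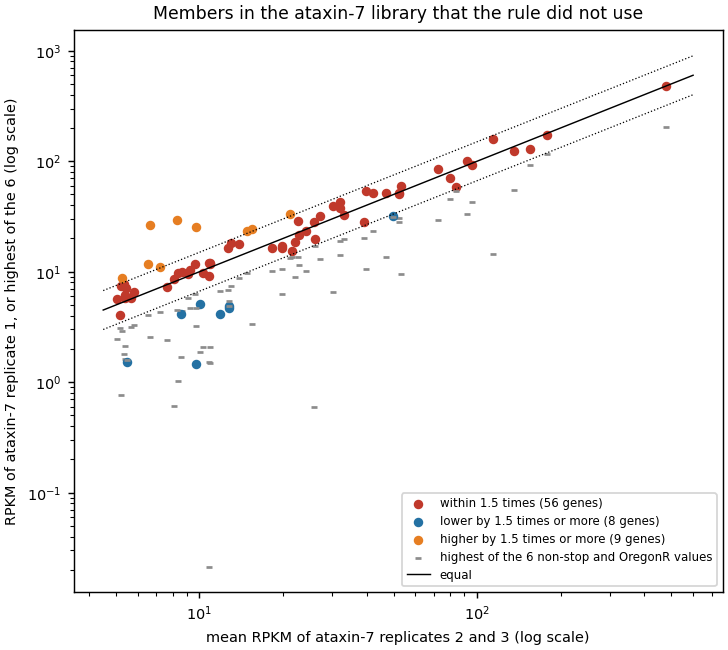
RPKM of each of the 73 genes in ataxin-7 replicate 1 (coloured circles, vertical log axis) against its mean in ataxin-7 replicates 2 and 3 (horizontal log axis), with the highest of its 6 non-stop and OregonR values as a grey dash. The solid line marks equality and the dotted lines 1.5-fold. Of the 73 genes 56 lie between the dotted lines, 8 below and 9 above.

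The size of the difference varied widely. The ratio of the mean of replicates 2 and 3 to the highest non-stop or OregonR value had a median of 2.09, was at least 2 for 40 genes and at least 5 for 12 genes. The mean of replicates 2 and 3 ran from 5.06 to 481 RPKM with a median of 13.8 RPKM. All 3 OregonR values were under 1 RPKM for 14 genes, all 3 non-stop values for 6 genes and all 6 for 4 genes. The highest of the 6 values was a non-stop library for 42 genes and an OregonR library for 31. The closest competitor was thus from either genotype. OregonR replicate 3, which held the most maternal RNA of its group, was the highest OregonR library for 49 of the 73 genes (67.1%), against 56.5% of the genes of the same level.

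**Figure D3:**
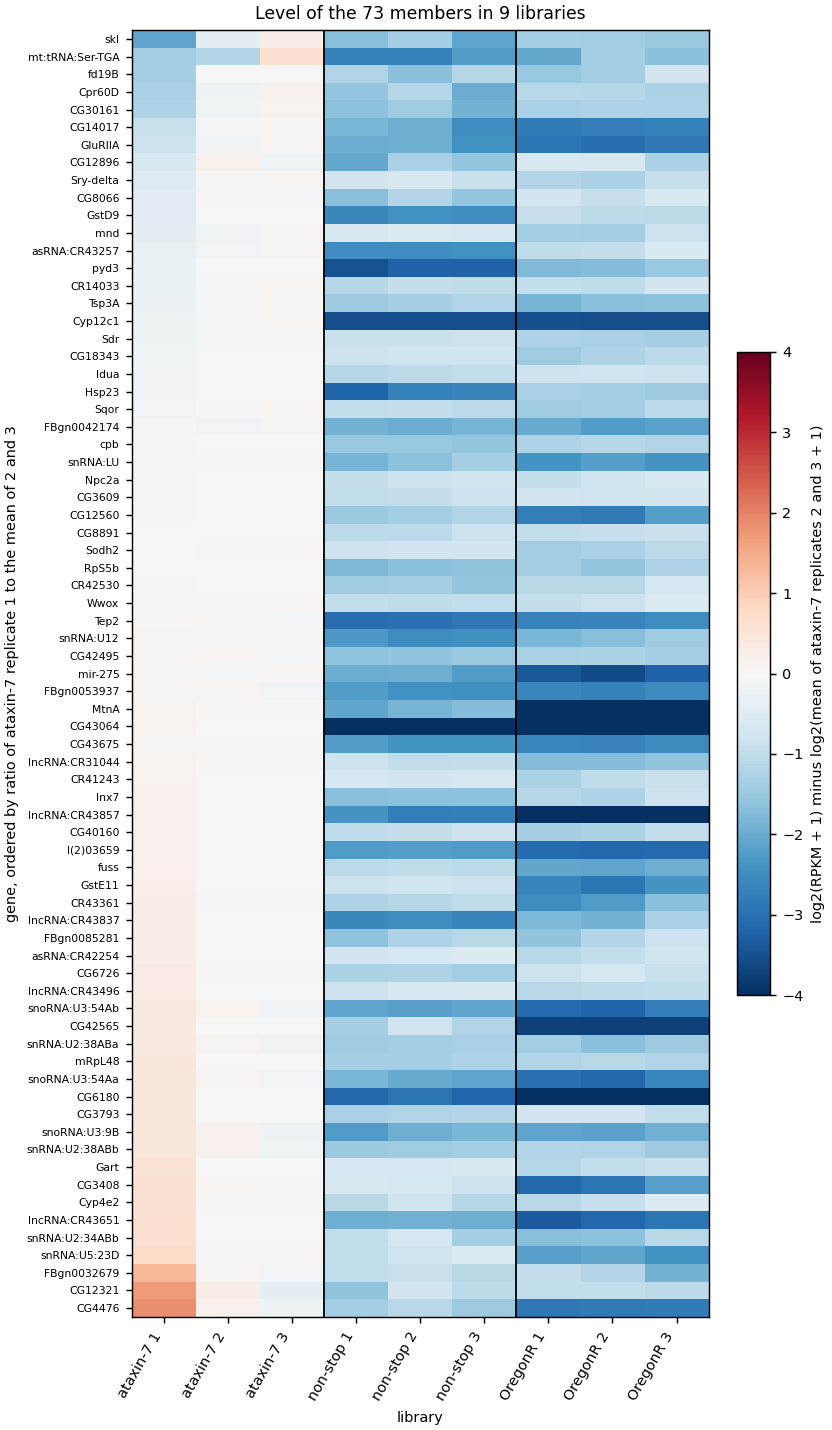
Level of each of the 73 genes (rows, ordered by the ratio of ataxin-7 replicate 1 to the mean of replicates 2 and 3) in the 9 libraries (columns), as log2(RPKM + 1) minus log2 of the ataxin-7 replicate 2 and 3 mean plus 1. Red is above that mean and blue below it, and the colour scale stops at 4 log2 units. The first column is near white for most rows, with blue at the top for skl and red at the bottom for CG4476.

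Cyp12c1, a cytochrome P450 of the mitochondrial type, was at 9.16, 10.3 and 11.3 RPKM in ataxin-7, at 0 in all 3 non-stop libraries, and at 0.0214, 0 and 0.00748 RPKM in OregonR. These values rested on 1312 to 1620 reads in each ataxin-7 library against 0 reads in non-stop and 3, 0 and 1 reads in OregonR. A count of 0 allowed up to 0.0408 to 0.0428 RPKM in non-stop. Every ataxin-7 library thus stood far above the other 6, replicate 1 included.

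CG43064 was at 28.3, 25.9 and 25.7 RPKM in ataxin-7, 0.382, 0.318 and 0.601 RPKM in non-stop and 0.0335, 0.0227 and 0 RPKM in OregonR. Tep2, a secreted thioester-containing protein of innate immunity, was at 8.54, 8.403 and 7.80 RPKM in ataxin-7, 0.0969, 0.145 and 0.252 RPKM in non-stop and 0.441, 0.468 and 0.604 RPKM in OregonR. The ataxin-7 replicates of both genes lay close together, and their 2 other groups were low in opposite orders. FBgn0010549, an ABC transporter gene, was at 9.64, 8.45 and 8.32 RPKM in ataxin-7, 0.942, 1.02 and 0.963 RPKM in non-stop and 0.0951, 0.0702 and 0.0891 RPKM in OregonR. CG6180 was at 158, 117 and 112 RPKM in ataxin-7, 12.1, 14.4 and 11.8 RPKM in non-stop and 3.88, 3.60 and 4.22 RPKM in OregonR. For these genes the groups did not overlap and non-stop was above OregonR, still far below ataxin-7.

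CG43675 was at 11.9, 11.5 and 10.1 RPKM in ataxin-7, 1.51, 1.23 and 1.23 RPKM in non-stop and 0.920, 0.840 and 1.01 RPKM in OregonR. An identifier without a symbol in the annotation, FBgn0053937, had almost the same RPKM in every library, from 10.03 to 11.9 RPKM in ataxin-7 against 1.16 to 1.495 RPKM in non-stop and 0.812 to 1.02 RPKM in OregonR. The values of this pair may come from shared reads and are not independent, but both identifiers are held in all counts of the chosen genes.

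Among the genes of known stress response were a metallothionein and a small heat shock protein. MtnA, which binds copper and other metal ions, was at 51.4, 49.2 and 44.8 RPKM in ataxin-7, 10.3, 12.2 and 13.5 RPKM in non-stop and 0.570, 0.554 and 1.17 RPKM in OregonR. The 3 genotypes formed separate steps with ataxin-7 at the top. The other 4 metallothionein genes of the list, MtnB, MtnC, MtnD and MtnE, stayed under 1 RPKM in all 9 libraries, and MtnB, MtnC and MtnD were at 0 throughout.

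Hsp23 was at 123.5, 137 and 135 RPKM in ataxin-7, 13.9, 20.2 and 20.6 RPKM in non-stop and 55.1, 53.0 and 49.1 RPKM in OregonR. Here OregonR was the intermediate group and ataxin-7 replicate 1 was close to its replicates. The 10 other genes of the list of small heat shock and Hsp70 genes did not meet the rule. Hsp26, for example, was at 386, 27.7 and 33.5 RPKM in ataxin-7, 312, 284 and 231 RPKM in non-stop and 23.3, 27.6 and 32.8 RPKM in OregonR. Hsp27 was at 316, 92.7 and 66.5 RPKM in ataxin-7, 409, 382 and 331 RPKM in non-stop and 38.4, 51.3 and 113 RPKM in OregonR. These neighbours of Hsp23 in the family were highest in replicate 1 of ataxin-7 and in non-stop, as the maternal list was, whereas Hsp23 was not.

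Several of the 73 genes encode enzymes of detoxification and metabolism. GstD9, a glutathione S-transferase, was at 28.3, 38.8 and 39.2 RPKM in ataxin-7, 5.77, 6.45 and 6.19 RPKM in non-stop and 20.02, 18.4 and 17.8 RPKM in OregonR. GstE11, of another class of the same enzymes, was at 37.4, 31.9 and 32.5 RPKM in ataxin-7, 17.3, 19.1 and 17.3 RPKM in non-stop and 4.28, 3.52 and 5.46 RPKM in OregonR. Both were highest in ataxin-7, but the order of non-stop and OregonR was opposite. GstD1, a related gene looked up after the values were seen, was at 97.3, 2.09 and 2.20 RPKM in ataxin-7, 31.5, 37.4 and 31.4 RPKM in non-stop and 0.909, 1.01 and 1.93 RPKM in OregonR, and so did not share the even level of GstD9 and GstE11 across the ataxin-7 libraries.

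pyd3, the beta-alanine synthase of pyrimidine breakdown, was at 16.5, 19.6 and 20.1 RPKM in ataxin-7, 0.855, 1.21 and 1.24 RPKM in non-stop and 5.19, 5.31 and 6.29 RPKM in OregonR. The 3 groups did not overlap. Sodh2, a sorbitol dehydrogenase, was at 32.7, 32.1 and 34.2 RPKM in ataxin-7 against 18.3 to 19.6 RPKM in non-stop and 12 to 15.6 RPKM in OregonR. Sqor, which oxidises sulfide in mitochondria, was at 21.3, 21.4 and 24.4 RPKM in ataxin-7 against 10.5 to 11.4 RPKM in non-stop and 7.99 to 10.7 RPKM in OregonR. Both enzymes were about as high in replicate 1 as in replicates 2 and 3.

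Gart, which carries steps of purine synthesis, was at 11.04, 7.15 and 7.24 RPKM in ataxin-7, 4.14, 4.16 and 4.35 RPKM in non-stop and 2.68, 3.10 and 3.43 RPKM in OregonR. Cyp4e2, another cytochrome P450, was at 23.2, 15.4 and 14.1 RPKM in ataxin-7, 6.38, 8.07 and 6.13 RPKM in non-stop and 6.38, 7.41 and 9.80 RPKM in OregonR. In both genes replicate 1 was the highest of the 9 libraries. The next genes were level across the ataxin-7 libraries. Npc2a, a sterol-binding protein, was at 172, 176 and 183 RPKM in ataxin-7 against 91.4 to 102 RPKM in non-stop and 91.9 to 117 RPKM in OregonR. Idua, a lysosomal alpha-L-iduronidase, was at 16.4, 18.2 and 18.4 RPKM in ataxin-7 against 7.77 to 8.75 RPKM in non-stop and 9.79 to 10.2 RPKM in OregonR.

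The most abundant of the 73 genes was RpS5b, the paralog of the ribosomal protein gene RpS5a that is known from the female germ line. It was at 479, 483 and 479 RPKM in ataxin-7, 139, 151 and 158 RPKM in non-stop and 189, 165 and 202 RPKM in OregonR. The ataxin-7 libraries were within 5 RPKM of each other, and none of the other 6 exceeded 202 RPKM. RpS5a was at 97.9, 130 and 131 RPKM in ataxin-7, 68.5, 72.6 and 76.3 RPKM in non-stop and 122, 110 and 121 RPKM in OregonR, so that the paralog did not stand apart in ataxin-7 in the same way. Reads that fit both paralogs could be split by the counting, which was not checked.

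cpb, the beta subunit of the actin capping protein, was at 91.8, 96.6 and 95.5 RPKM in ataxin-7, 33.2, 33.1 and 32.5 RPKM in non-stop and 39.96, 42.8 and 41.3 RPKM in OregonR. Replicates of all 3 genotypes were tight and ataxin-7 stood apart. Its partner subunit cpa, looked up after the values were seen, was at 24.1, 15.5 and 16.2 RPKM in ataxin-7, 46.5, 43.5 and 40.8 RPKM in non-stop and 38.8, 38.4 and 30.3 RPKM in OregonR. The alpha subunit RNA was thus lower in ataxin-7 than in every other library, the opposite order to cpb. mRpL48, a protein of the mitochondrial ribosome that lies next to cpb, was at 43.0, 32.5 and 31.5 RPKM in ataxin-7 against 11.9 to 12.9 RPKM in non-stop and 13.4 to 14.3 RPKM in OregonR.

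Among regulators, Sry-delta, a zinc finger protein, was at 58.8, 79.8 and 87.9 RPKM in ataxin-7, 50.5, 54.2 and 45.2 RPKM in non-stop and 36.3, 34.0 and 43.5 RPKM in OregonR. fuss, of the Ski and Sno family of transcriptional repressors, was at 6.22, 5.44 and 5.33 RPKM in ataxin-7 against 2.00 to 2.13 RPKM in non-stop and 0.494 to 0.664 RPKM in OregonR. Sdr, a secreted decoy of the insulin receptor, was at 17.0, 19.3 and 20.4 RPKM in ataxin-7 against 10.2 to 10.6 RPKM in non-stop and 7.27 to 7.81 RPKM in OregonR. None of these 3 genes overlapped with the other genotypes in any ataxin-7 library. The membrane proteins Tsp3A, a tetraspanin, and mnd, an amino acid transporter subunit, also met the rule, with 18.5 to 23.4 RPKM and 19.7 to 28.3 RPKM in ataxin-7.

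**Figure D4:**
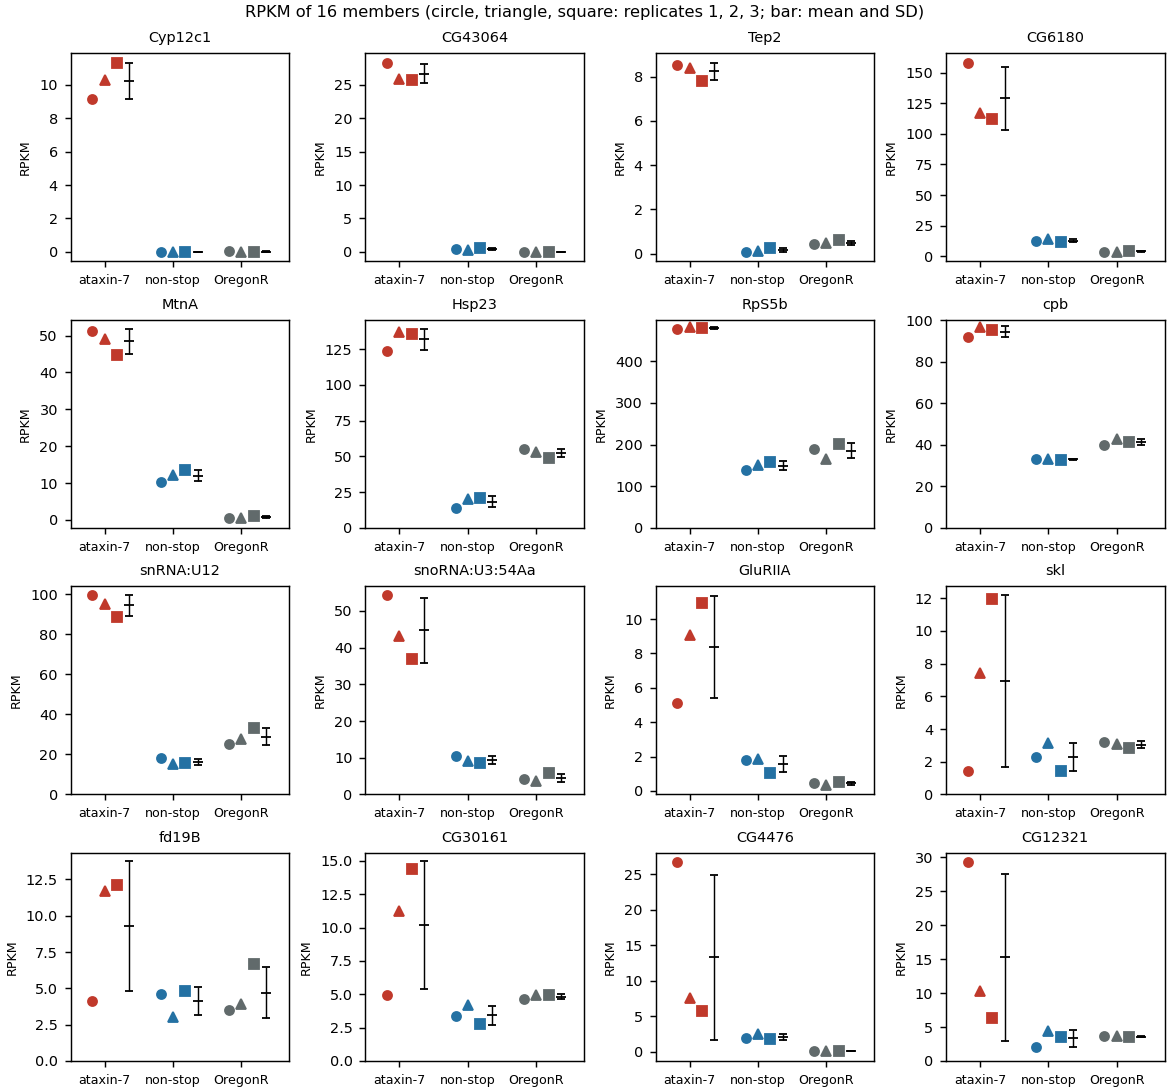
RPKM of 16 of the 73 genes in each library, with ataxin-7 in red, non-stop in blue and OregonR in grey. Circles, triangles and squares are replicates 1, 2 and 3, and the bars give the mean and SD of 3 libraries. The red circle lies with the other red symbols for genes such as RpS5b, below them for GluRIIA, skl, fd19B and CG30161, and above them for CG4476 and CG12321.

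A group of 8 genes was lower in ataxin-7 replicate 1 by 1.5-fold or more. skl, a pro-apoptotic gene related to reaper, was at 1.45, 7.41 and 11.9 RPKM in ataxin-7, 2.31, 3.16 and 1.46 RPKM in non-stop and 3.20, 3.10 and 2.82 RPKM in OregonR. fd19B, a forkhead transcription factor, was at 4.10, 11.7 and 12.1 RPKM in ataxin-7, 4.63, 3.04 and 4.79 RPKM in non-stop and 3.48, 3.94 and 6.69 RPKM in OregonR. For both genes replicate 1 lay among or below the other 6 libraries, and only replicates 2 and 3 were high. The related death genes rpr, hid and grim, looked up after the values were seen, were not highest in ataxin-7. rpr was at 2.66, 6.24 and 7.60 RPKM in ataxin-7, 1.49, 1.76 and 1.16 RPKM in non-stop and 12.6, 11.8 and 9.61 RPKM in OregonR. It was thus highest in OregonR, though its replicate 1 was the lowest ataxin-7 library, as in skl. hid was at 1.51 to 1.77 RPKM in ataxin-7, 4.10 to 4.18 RPKM in non-stop and 1.37 to 1.59 RPKM in OregonR. grim was at 0.125 to 0.709 RPKM in ataxin-7, 0 to 0.211 RPKM in non-stop and 0.931 to 1.34 RPKM in OregonR.

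CG30161 was at 4.92, 11.3 and 14.4 RPKM in ataxin-7, 3.39, 4.18 and 2.75 RPKM in non-stop and 4.62, 4.93 and 4.93 RPKM in OregonR. Its neighbour Cpr60D, a cuticle protein gene whose midpoint lies 0.911 kb away in the BDGP6 annotation, was at 4.66, 10.97 and 14.6 RPKM in ataxin-7, 3.72, 5.29 and 2.48 RPKM in non-stop and 5.46, 5.32 and 4.70 RPKM in OregonR. The pair had nearly the same profile, with replicate 1 at the level of OregonR. In the same 8 genes were GluRIIA, a subunit of the glutamate receptor of the neuromuscular junction, and CG14017, which overlaps it. GluRIIA was at 5.11, 9.08 and 10.95 RPKM in ataxin-7, 1.78, 1.87 and 1.07 RPKM in non-stop and 0.454, 0.352 and 0.516 RPKM in OregonR. CG14017 was at 4.13, 8.02 and 9.17 RPKM in ataxin-7 against 0.679 to 1.71 RPKM in non-stop and 0.392 to 0.486 RPKM in OregonR. Replicate 1 of this overlapping pair was lower than its replicates but still above the other 6 libraries, and the reads of the 2 genes may be shared. The related GluRIIB, looked up after the values were seen, had the same order at lower levels. It was at 1.37, 2.04 and 2.64 RPKM in ataxin-7, 0.0798 to 0.339 RPKM in non-stop and 0.0390 to 0.0838 RPKM in OregonR.

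The remaining genes of the group were CG12896 and mt:tRNA:Ser-TGA. CG12896 was at 31.6, 56.0 and 43.8 RPKM in ataxin-7, 11.4, 19.6 and 16.4 RPKM in non-stop and 31.4, 31.5 and 20.3 RPKM in OregonR, with replicate 1 level with the highest OregonR values. The mitochondrial tRNA gene was at 1.52, 1.89 and 9.08 RPKM in ataxin-7, 0, 0 and 0.387 RPKM in non-stop and 0.582, 1.58 and 1.02 RPKM in OregonR. Its value in replicate 3 rested on 45 reads and that in replicate 2 on 11 reads, so that a single library put it past the rule. For a 0 in non-stop its short length allowed up to 1.16 RPKM. The 5 genes whose replicate 1 was not above the other 6 libraries were skl, fd19B, CG30161, Cpr60D and mt:tRNA:Ser-TGA.

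At the other end, 9 genes were higher in ataxin-7 replicate 1 than in replicates 2 and 3. CG4476 was at 26.7, 7.60 and 5.70 RPKM in ataxin-7, 1.97, 2.58 and 1.81 RPKM in non-stop and 0.0607, 0.0687 and 0.0913 RPKM in OregonR. CG12321 was at 29.3, 10.3 and 6.30 RPKM in ataxin-7, 2.04, 4.47 and 3.51 RPKM in non-stop and 3.64, 3.65 and 3.499 RPKM in OregonR. Replicate 1 was thus 4.02-fold and 3.54-fold the mean of replicates 2 and 3 in this pair. CG3408 was at 33.0, 22.3 and 19.9 RPKM in ataxin-7, 13.2, 12.5 and 11.1 RPKM in non-stop and 1.504, 1.95 and 3.86 RPKM in OregonR. The order of the groups in CG4476 and CG3408 was that of the maternal list, except that ataxin-7 replicates 2 and 3 also exceeded non-stop.

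Small nuclear and nucleolar RNAs were common among the 73 genes. Of 9 small nuclear RNA genes at the same level 6 met the rule, as did 3 of 8 small nucleolar RNA genes. snRNA:U12, of the minor spliceosome, was at 99.5, 95.2 and 88.9 RPKM in ataxin-7, 18.1, 15.2 and 15.9 RPKM in non-stop and 25.4, 27.9 and 33.4 RPKM in OregonR. It overlaps Baldspot, whose own level was 6.32, 5.59 and 5.34 RPKM in ataxin-7, 13.5, 13.7 and 13.8 RPKM in non-stop and 2.16, 2.88 and 3.88 RPKM in OregonR. Baldspot was highest in non-stop and did not share the profile of snRNA:U12.

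For U2, a component of the major spliceosome, 3 copies met the rule, with 4.60 to 8.79 RPKM in ataxin-7 against 1.27 to 2.93 RPKM in non-stop and 0.934 to 1.88 RPKM in OregonR. For U3, which acts in the processing of ribosomal RNA, 3 copies met it as well. snoRNA:U3:54Aa was at 54.2, 43.1 and 36.8 RPKM in ataxin-7, 10.6, 9.17 and 8.56 RPKM in non-stop and 4.22, 3.62 and 5.73 RPKM in OregonR. snoRNA:U3:9B was at 7.44, 6.02 and 4.44 RPKM in ataxin-7 against 0.290 to 0.760 RPKM in non-stop and 0.414 to 0.638 RPKM in OregonR. Replicate 1 was the highest library for every U2 and U3 copy. The copies are nearly identical in sequence, so the counting could have moved reads between them and their levels are uncertain.

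snRNA:U5:23D and snRNA:LU overlap FASN2, which was at 0.389, 0.361 and 0.340 RPKM in ataxin-7, 0.0775 to 0.116 RPKM in non-stop and 0.0254 to 0.0429 RPKM in OregonR. snRNA:U5:23D was at 11.6, 6.33 and 6.71 RPKM in ataxin-7, 2.79, 3.32 and 4.09 RPKM in non-stop and 0.684, 0.797 and 0.409 RPKM in OregonR. snRNA:LU was at 7.31, 7.36 and 7.87 RPKM in ataxin-7, 1.38, 1.77 and 2.41 RPKM in non-stop and 0.644, 0.875 and 0.674 RPKM in OregonR. Both genes and FASN2 had the same order of genotypes. Most RNAs of these classes carry no poly(A) tail, and the libraries were made from polyadenylated RNA. Averaged over ataxin-7 replicates 2 and 3, 8 of the 73 genes had fewer than 100 reads, and all 8 were short RNAs. The other small RNA genes at the level were not uniformly high in ataxin-7. snRNA:U1:95Ca, for example, was at 9.45, 5.54 and 4.87 RPKM in ataxin-7, 17.7, 22.9 and 14.0 RPKM in non-stop and 2.42, 2.69 and 3.60 RPKM in OregonR.

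Long non-coding RNAs made up most of the remaining non-coding genes. lncRNA:CR43857 overlaps the microRNA gene mir-275 and was at 60.2, 53.99 and 52.2 RPKM in ataxin-7, 9.61, 6.91 and 7.12 RPKM in non-stop and 1.22, 1.33 and 1.60 RPKM in OregonR. The stretch of mir-275 itself was at 11.9, 10.2 and 11.7 RPKM in ataxin-7 against 1.56 to 2.09 RPKM in non-stop and 0 to 0.274 RPKM in OregonR with 86 to 93 reads in each ataxin-7 library. Libraries of this kind do not capture mature microRNAs, so the values are those of longer RNA across the gene. The pair forms 1 locus, though both genes are held in the count of 73, and shows a clear step at ataxin-7. lncRNA:CR43651, which overlaps mir-14, was at 24.5, 15.4 and 15.6 RPKM in ataxin-7, 3.24, 3.35 and 3.30 RPKM in non-stop and 0.630, 0.867 and 1.22 RPKM in OregonR. lncRNA:CR31044, which overlaps mir-279 and mir-996, was at 5.67, 5.25 and 4.88 RPKM in ataxin-7, 2.45, 2.04 and 2.10 RPKM in non-stop and 0.840, 0.820 and 0.990 RPKM in OregonR. Another microRNA gene, mir-986, overlaps Cyp4e2.

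lncRNA:CR43837 was at 85.6, 73.3 and 71.2 RPKM in ataxin-7, 11.2, 11.9 and 10.8 RPKM in non-stop and 20.2, 18.6 and 29.1 RPKM in OregonR. Inx7, an innexin of gap junctions, lies 4.23 kb from it by midpoints and was at 10.4, 9.28 and 9.14 RPKM in ataxin-7, 2.22, 2.30 and 2.25 RPKM in non-stop and 3.68, 3.31 and 4.72 RPKM in OregonR. The length by which the reads of Inx7 had been divided was 18258 bases, whereas its span in the annotation is 2001 bases. When the reads of lncRNA:CR43837 were taken away from those of Inx7, 2113, 2529 and 2274 reads were left in ataxin-7, 776, 751 and 794 in non-stop and 2213, 2139 and 2274 in OregonR. Over the same length these were worth 1.45 to 1.66 RPKM in ataxin-7, 1.03 to 1.11 RPKM in non-stop and 1.36 to 1.67 RPKM in OregonR. The remainder overlapped between ataxin-7 and OregonR, so the place of Inx7 among the 73 genes rested on reads that equal those of its neighbour in number. The subtraction was added after the values were seen and assumes that every read of the neighbour was counted for Inx7.

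Antisense transcripts were also found. asRNA:CR43257, which overlaps ETH and Orc4, was at 4.08, 4.74 and 5.601 RPKM in ataxin-7, 0.0991, 0.0911 and 0.143 RPKM in non-stop and 2.08, 2.19 and 3.07 RPKM in OregonR. asRNA:CR42254, which overlaps BEAF-32, was at 11.7, 9.602 and 9.74 RPKM in ataxin-7 against 5.44 to 6.30 RPKM in non-stop and 3.93 to 5.16 RPKM in OregonR. The kit was stranded, but whether strand was used in the counting is not given in the sources used here, so reads of an antisense gene and its partner may not be told apart. Of 4 pseudogenes the most abundant was CR14033, which overlaps tkv, at 130, 146 and 165 RPKM in ataxin-7, 69.8, 79.7 and 75.9 RPKM in non-stop and 78.5, 77.2 and 92.5 RPKM in OregonR. tkv itself was at 3.12 to 3.52 RPKM in ataxin-7, 4.33 to 4.59 RPKM in non-stop and 2.82 to 3.06 RPKM in OregonR.

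The threshold separated genes of similar values. Just inside the ratio of 1.5 were Cyp4e2 at 1.51, mnd at 1.52 and Npc2a at 1.53. Just outside were Aprt at 1.49, CG5080 at 1.48 and Dera at 1.47. For the mean of 5 RPKM, lncRNA:CR31044 at 5.06 RPKM and asRNA:CR43257 at 5.17 RPKM were just inside, and D2hgdh at 4.87 RPKM and CG1750 at 4.82 RPKM just outside.

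The only difference that the rule had not fixed and that has replicates on both sides was that between non-stop and OregonR. This comparison asks whether the genes high in ataxin-7 also differed in non-stop, named for the other subunit of the same module. The rule bounds the highest of the 6 values and not their difference, but these same 6 values took part in the choice. The shares called among the chosen genes and among all genes are therefore not on equal terms. With limma on log2(RPKM + 1), 82.7% of 7280 genes were called at an adjusted p under 0.05, 47.7% higher and 35.1% lower in non-stop. The p-values measure the spread between these libraries.

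Of the 73 genes, 66 passed the filter and 48 of them (72.7%) were called, 30 higher and 18 lower in non-stop. The share of the 66 was 45.5% higher and 27.3% lower, each below that of all genes tested. The median log2 fold change was 0.26 over the 66 genes and 0.17 over all genes tested. As the 2 experiments differ in the centre of all genes, median-of-ratios scaling brought that median to -0.00333 and gave 22 higher and 26 lower, against 40.6% and 42.1% of all genes tested. Quantile normalization brought it to 0.05 and gave 22 higher and 23 lower, against 42.3% and 39% of all genes tested. The genes were thus split between both directions, and the split moved with the scaling as that of all genes did. Of the 66 genes 8 passed the filter with no OregonR library at 1 RPKM and 1, asRNA:CR43257, with no non-stop library at 1 RPKM, and such genes had to differ. The 8 were CG42565, CG4476, mir-275, snRNA:U5:23D, snRNA:LU, fuss, GluRIIA and lncRNA:CR31044. All 9 genes stay in the counts of called genes and in the figure, and where their fold changes are given no p-value is printed. With all 6 libraries at 1 RPKM or more there were 51 genes, 18 higher and 16 lower, against 47.6% and 32.8% of 6163 genes. Without the filter all 73 genes were tested, with 32 higher and 20 lower, against 29.8% and 31.9% of 13181 genes. Those 13181 genes include every gene above 0 in any of the 6 libraries, and 7280 genes passed the filter. Their level was thus unlike that of the 73 genes, and the shares are not on equal terms. When a single non-stop library was left out, the 8 genes with no OregonR library at 1 RPKM no longer passed the filter. This left 58 genes, of which 18 or 19 were higher.

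All 3 non-stop values lay above all 3 OregonR values for 31 of the 66 genes, against 49.1% of all genes tested, and below them for 20, against 36.4%. For the other 15 genes the groups overlapped.

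MtnA had the largest log2 fold change in favour of non-stop, 2.89 ± 0.16 (SE, adjusted p = 7.18e-06), and passed the filter with 3 non-stop libraries and 1 OregonR library. The log2 fold change of CG42565 was 2.63 ± 0.14, and the gene was at 16.5, 12.4 and 12.8 RPKM in ataxin-7, 4.40, 6.80 and 4.90 RPKM in non-stop and 0.0141, 0.0256 and 0.0148 RPKM in OregonR. CG3408 followed with 2.01 ± 0.24 (adjusted p = 0.000175) and lncRNA:CR43857 with 1.89 ± 0.14 (adjusted p = 1.82e-05). In these 4 genes every non-stop library was above every OregonR library and below every ataxin-7 library. CG6180 was higher in non-stop by 1.48 ± 0.11 (adjusted p = 1.61e-05). The log2 fold change was 1.53 ± 0.10 for CG4476 and 1.35 ± 0.12 for mir-275. These folds are on the log2(RPKM + 1) scale and understate the change of genes with low values.

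In the other direction pyd3 fell by 1.65 ± 0.12 on the log2 scale (adjusted p = 1.48e-05). asRNA:CR43257 had a log2 fold change of -1.62 ± 0.12. Hsp23 fell by 1.49 ± 0.15 (adjusted p = 6.71e-05) and GstD9 by 1.47 ± 0.08 (adjusted p = 7.16e-06). In this set the non-stop libraries were the lowest, OregonR was intermediate and ataxin-7 was highest. snRNA:U12 fell by 0.78 ± 0.11 (adjusted p = 0.000533) and cpb by 0.32 ± 0.05 (adjusted p = 0.000756). RpS5b fell by 0.31 ± 0.09 (adjusted p = 0.0121) as deposited, and quantile normalization turned this to 0.03 (adjusted p = 0.764). Npc2a, CR14033, skl, fd19B and CG12321 were not called, with log2 fold changes of -0.08, -0.13, -0.32, -0.12 and -0.12. Under median-of-ratios scaling Npc2a at -0.28 (adjusted p = 0.0156), CR14033 at -0.34 (adjusted p = 0.00566) and skl at -0.47 (adjusted p = 0.0488) were called lower, whereas fd19B and CG12321 were called under none of the alternatives. CR14033 was also called lower with differences centred within bins of gene length, at -0.24 (adjusted p = 0.0257). skl was also called lower under quantile normalization, at -0.51 (adjusted p = 0.0256), and without non-stop replicate 2, at -0.50 (adjusted p = 0.0298). In sign, quantile normalization turned Npc2a and CR14033, centring within bins of gene length turned Npc2a and CG12321, and leaving out a library turned Npc2a, fd19B and CG12321, none of them called there.

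**Figure D5:**
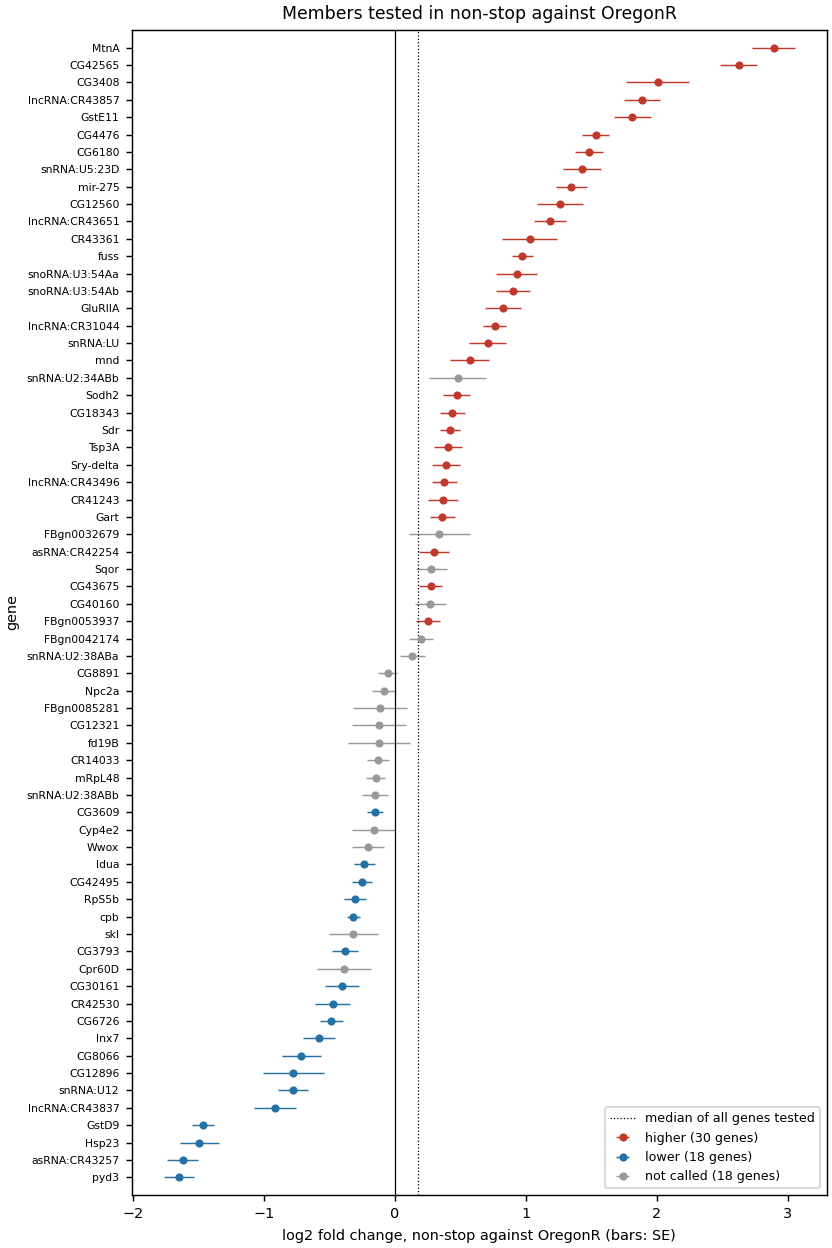
Log2 fold change of the 66 genes that passed the filter, non-stop against OregonR, with SE as bars. Red marks 30 genes called higher in non-stop, blue 18 called lower and grey 18 not called, and the dotted line is the median of all genes tested at 0.17. The genes spread from 2.89 for MtnA to -1.65 for pyd3, and those that passed the filter through a single genotype are included.

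In the list of small heat shock and Hsp70 genes, 10 of 11 were tested, 3 were higher and 2 were lower in non-stop. Hsp22 fell by 2.30 ± 0.16 on the log2 scale (adjusted p = 1.38e-05), as Hsp23 did, whereas Hsp26 was higher by 3.26 ± 0.15 (adjusted p = 3.73e-06), Hsp27 by 2.60 ± 0.36 (adjusted p = 0.000369) and Hsp83 by 1.73 ± 0.10 (adjusted p = 8.62e-06). Of the metallothioneins only MtnA was tested. No early zygotic, late zygotic or maternal marker was among the 73 genes, nor was any gene of the cellularization, gap, pair-rule, segment polarity, Hox, dorsal ectoderm, mesoderm or neuroectoderm lists. This absence says little. Only 1.51% of the genes of the same level met the rule. In the early zygotic and maternal lists ataxin-7 replicates 2 and 3 lay between non-stop and OregonR, so such genes could rarely meet it. In non-stop 24 of 25 early zygotic markers were lower and none was higher, and 12 of 14 maternal markers were higher and none was lower. In a whole embryo, fewer cells that express a gene and less RNA per cell cannot be told apart.

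The 73 genes differed from other genes of the same level in kind. Protein-coding genes made up 47 (64.4%), against 92.8% of the 4834 genes. There were 8 genes annotated as ncRNA, 6 small nuclear RNAs, 4 pseudogenes, 3 small nucleolar RNAs, 1 tRNA and 4 identifiers that the annotation does not hold. The median span was 1541 bases against 2277 bases, and 37.7% of 69 annotated genes had a single exon against 14.8%. Among protein-coding genes alone, 21.3% had a single exon against 13.1%. The 69 genes as a whole were thus shorter and more often had a single exon, a gap that was smaller among protein-coding genes. Protein-coding genes had a median of 3 exons in both sets, and median spans of 2001 bases among the chosen genes and 2334 bases at the same level. An overlap with another gene was annotated for 43.5% of the 69 genes and 46.4% of the genes of the same level.

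By chromosome arm, 23 of the 73 genes (31.5%) were on 2L, which held 19.1% of the genes of the same level, and 6 (8.22%) were on X, which held 15.2%. There were 14 on 2R, 11 on 3L, 12 on 3R and 2 on chromosome 4. Of the 69 placed genes, 18 had their midpoint within 10 kb of that of another. These were the pairs cpb and mRpL48, snRNA:LU and snRNA:U5:23D, GluRIIA and CG14017, lncRNA:CR43857 and mir-275, Wwox and CG12560, the U2 copies at 38AB, the U3 copies at 54A, Cpr60D and CG30161, and Inx7 and lncRNA:CR43837. Wwox, an oxidoreductase with WW domains, was at 9.53, 8.62 and 9.59 RPKM in ataxin-7 against 3.95 to 4.14 RPKM in non-stop and 4.21 to 5.84 RPKM in OregonR. CG12560 was at 23.6, 24.0 and 24.5 RPKM in ataxin-7 against 8.10 to 10.1 RPKM in non-stop and 2.58 to 4.44 RPKM in OregonR. Members of a pair are not independent of each other. The share with such a neighbour was not worked out for genes of the same level, so the 18 stands as a count only.

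Atxn7 itself lies on 2L, and 6 of the 69 placed genes (8.70%) lay within 1 Mb of it by midpoints, against 1.75% of the 4621 placed genes of the same level. They were CG3609 at 4.63 kb, Npc2a at 390 kb, mRpL48 and cpb at 667 and 672 kb, and snRNA:LU and snRNA:U5:23D at 669 and 671 kb on the other side. CG3609, separated from Atxn7 by 1 gene, was at 50.4, 51.6 and 53.0 RPKM in ataxin-7, 25.8, 26.8 and 28.3 RPKM in non-stop and 30.1, 29.4 and 30.9 RPKM in OregonR. Of 81 genes of the same level within 1 Mb, 7.41% met the rule. All 3 ataxin-7 values were above the other 6 for 12.3% of these 81 genes and for 9.66% of all 4834. The excess near Atxn7 was thus smaller by the wider measure, and the 6 genes fall into 4 loci, so no test was made. Within 5 Mb there were 11 of the 69 genes (15.9%), against 6.25%.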

How the data were processed

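The analysis used the RPKM values that the authors deposited as a single table of 15682 genes by 9 libraries. The submitters' processing notes name CASAVA 1.8.2, TopHat2 2.0.13, edgeR 3.14.0 and the build dm3, without their roles. Whole reads were recovered for 99.9% of the 13809 genes above 0 (relative tolerance 3e-13). On simulated data 100% of 9731 genes were recovered. The recovered library sizes had been rescaled by factors of 0.958 to 1.07. For 82.4% of genes with introns the length was within 5% of the genomic span, introns included, so RPKM is low for genes with long introns. Of the 43 chosen genes with introns this held for 32.

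Symbols, positions and overlaps came from the BDGP6 annotation by identifier. Positions were not converted between builds, and distances run from midpoint to midpoint. The 73 genes and all lists were chosen with earlier results of these data known. Genes at the same level are those with a mean of at least 5 RPKM in ataxin-7 replicates 2 and 3. Groups followed the titles.

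Values of log2(RPKM + 1) in non-stop were tested against OregonR with limma (version 3.58.1, R 4.3.3; two-sided moderated statistics with an intensity trend) over genes with at least 1 RPKM in at least 3 of the 6 libraries. The Benjamini-Hochberg adjustment ran over all genes tested. In simulated reads with 200 changed genes, 88% of 1.5-fold changes were recovered among 6979 genes tested and 100% of 2-fold changes among 6980, with 5.88% and 7.83% false calls. The simulation had a dispersion of 0.01 and no shift between experiments. In the data 82.7% of genes were called, so these rates need not hold there. Other steps used Python 3.11.15, numpy 2.4.6 and pandas 2.3.3.

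The alternatives were another pseudocount (0.1), no filter, other scalings, voom on recovered reads, a replicate block and leaving out each library. Genes were named if they had the 10 largest ratios or 10 highest means, were on a list, lay at a threshold, had the 4 largest called changes in each direction or had the 3 highest or lowest ratios of replicate 1. The other genes named were chosen after their values were seen. Promoter motifs were not analysed here, nor were 9 list entries that did not match the table.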

Additional observations from a re-analysis of the deposited data

How the results depend on the processing

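The number of genes that met the rule changed to 122 under quantile normalization, of which 69 were among the 73, to 164 at a ratio of 5 to 4 and 40 at a ratio of 2, and to 129 and 48 at means of 1 and 10 RPKM. Ataxin-7 replicate 1 was above the other 6 libraries for 94 of those 122 genes (77.0%). Median-of-ratios scaling gave 87 genes with replicate 1 above for 79, and leaving out each library of the 6 gave 73 to 86 genes.

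Between non-stop and OregonR, leaving out each library gave 18 to 33 of the chosen genes higher and 12 to 18 lower. The lowest counts of higher genes, 18, 18 and 19, came without non-stop replicates 1, 2 and 3. Each of these runs tested 58 genes in place of 66, since the 8 genes that had passed the filter only through non-stop dropped out. All 8 had been called higher, so much of the fall was set by the filter. Without the filter 4207 genes of the whole table were lower, against 2554 with it. Of the 48 chosen genes called, 45 kept their direction and 30 kept the call in every one of the 13 alternatives that tested them. Genes that had passed the filter through a single genotype were not tested when a library of that genotype was left out. The 3 that turned were RpS5b, which changed to 0.0289 under quantile normalization, and Gart and FBgn0053937 with differences centred within bins of gene length. Same-numbered libraries of the 2 experiments correlated at -0.24, 0.11 and -0.11 in their deviations, so the numbers pair nothing. The replicate block gave 28 higher and 15 lower.

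The non-stop libraries held fewer than 40 M reads each, so low values are least precise there, and the short RNA genes rest on few reads. Experiment and genotype cannot be told apart for non-stop.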
